A study of Mus musculus with 4 samples.

Results

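Synaptic vesicle and exocytosis genes were followed in the hippocampus of mouse pups at postnatal day 2. The members were all probe sets whose only gene symbol belonged to the synaptotagmin, Vamp, syntaxin, syntaxin-binding, complexin, Sv2 or Rab3 families, or was Syn1, Syn2, Syn3, Snap25, Snap23, Snap91, Syp, Synpr, Syngr1, Syngr3, Slc17a7, Unc13a, Rims1, Rims2 or Bsn. This gave 175 of 45037 probe sets and 73 of 18193 genes. Total RNA was hybridised to 4 Affymetrix arrays, 2 labelled as knockout of Zbtb20, a zinc finger transcription factor, and 2 labelled as control or wild type, from littermates. The knockout allele, the strain, the sex and the number of animals behind an array were not given in the sources used here, and no treatment was named. The spread between arrays of a group may therefore be technical. The stated question was which genes are targets of the factor while the hippocampus develops. The arrays were compared within each replicate number, as the KO-labelled array minus the control-labelled array, with pair 1 for replicate 1 and pair 2 for replicate 2. Such a difference rests on a single array of each label, without a test.

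At a synapse, transmitter is loaded into vesicles, which are tethered at the active zone of the presynaptic membrane, primed, and fused when calcium enters. Fusion is driven by SNARE proteins, a vesicle SNARE (VAMP2) pairing with target membrane SNAREs (syntaxin-1 and SNAP25). Synaptotagmins sense the calcium, complexins clamp and assist the SNARE bundle, and synapsins hold vesicles in reserve. Many of these genes are switched on as hippocampal neurons mature and form synapses around birth, while other family members serve traffic between membranes in every cell.

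The 4 arrays came on 2 scales and the targeted gene did not settle the genotype labels. The trimmed mean signal was 497 and 498 on the KO-labelled and control-labelled arrays of replicate 1, and 156 and 158 on those of replicate 2. Levels are therefore compared only within a pair. Of 9 Zbtb20 probe sets, 3 were lower on the KO-labelled array in pair 1, 2 in pair 2 and 0 in both. At 1443471_at the ratio of KO-labelled to control-labelled signal was 0.488 in pair 1 and 2.08 in pair 2. The position of the Zbtb20 probes was not given, and a probe beyond the deletion checks nothing. Groups are accordingly named by their labels. An exchange of labels within 1 pair would turn the sign of every difference of that pair, so that opposite directions printed here would become the same direction. Whether one occurred was not tested. The replicate 1 arrays also held liver transcripts, with albumin (Alb) at 15195 on the KO-labelled and 39309 on the control-labelled array, against 45.2 and 42.2 in pair 2. In bulk tissue, fewer cells of a type and less RNA per cell cannot be told apart.

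The vesicle genes were among the better-measured transcripts of the tissue. The median member stood at percentile 71.8 of all probe sets on the KO-labelled array and 72.7 on the control-labelled array of replicate 1, and at 72.2 on both arrays of replicate 2. A filter on low signal, at the 40th percentile of the mean log2 signal over all 4 arrays, was passed by 139 of the 175 member probe sets, which represented 64 of the 73 genes. The 9 genes with no probe set above it were Cplx3, Cplx4, Stx11, Stx19, Sv2c, Syt10, Syt12, Syt2 and Syt8. Cplx3, a complexin known from retinal ribbon synapses, had 40.7 on the KO-labelled array against 57.7 on the control-labelled array in pair 1, and 57.2 against 51.4 in pair 2. The member closest below the filter was a Rims2 probe set (1443215_at, mean log2 signal 6.62) and the closest above it a Snap91 probe set (1437817_at, 6.64).

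No vesicle gene passed the test between the labelled groups over all 4 arrays. Without the replicate number each standard error held the gap in scale between the replicates, so 0 calls there say little about a difference. Most members over 1.25-fold apart in each pair had opposite directions in the 2 pairs. So had most of all tested probe sets past that limit, with 589 and 514 opposite against 103 and 167 alike. limma, fitted over 27022 probe sets without the replicate number, called 0 of the 139 member probe sets at an adjusted p of 0.05 (0% of all probe sets tested were called), and 0 members were under an unadjusted p of 0.05 (0.0185% of all). In a blocked fit, with the replicate number as a factor, limma called 0 members (0% of all), and 1, a probe set of Syt7, was under an unadjusted p of 0.05 (1.22% of all). The smallest adjusted p among the members was 1 without and 0.9999 with the block. Within pair 1, 12 member probe sets (8.63%) were over 1.5-fold higher on the KO-labelled array, where 6.25% of all tested probe sets were, and 9 (6.47%) were over 1.5-fold lower, where 8.99% were. Within pair 2, 4 members (2.88%) were over 1.5-fold higher, against a background of 1.07%, and 6 (4.32%) over 1.5-fold lower, against 1.69%. These counts moved with the scaling and the filter: the 9 of pair 1 became 5 (5.48% of all) with quantile normalization and 19 of 175 (15.3%) with no filter, and the 4 and 6 of pair 2 became 10 and 10 (2.4% and 3.48%) with quantile normalization. Past 2-fold, 3 members were higher and 2 lower in pair 1, beside 1.68% and 2.69% of all, and 1 was higher and 0 lower in pair 2, beside 0.248% and 0.27% of all. Folds are on the scale of log2(signal + 32.56), which understates the change of dim genes. The same pseudocount weighs more in replicate 2, with trimmed means of 156 and 158, than in replicate 1, with 497 and 498. A given fold limit is therefore not alike in the 2 pairs. The median difference of the members was log2 -0.02 in pair 1 and -0.03 in pair 2, beside -0.02 and 0.02 for all probe sets tested.

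The medians of the members thus lay within log2 0.05 of those of all probe sets, and the shares past 1.5-fold in pair 2 have to be read with brightness beside them. The tested members had a median mean log2 signal of 8.78, beside 8.08 for all tested. Of the 70 members in the brighter part, 5.71% exceeded 1.5-fold upward and 7.14% downward on the KO-labelled array in pair 2. Among the 8919 tested probe sets at least as bright as the members' median, these shares were 1.5% and 3.09%. In pair 1 the brighter members stood at 11.4% upward and 1.43% downward, beside 2.86% and 2.03% of equally bright probe sets. The 69 dimmer members stood at 5.80% and 11.6% in pair 1, beside 7.93% and 12.4% of the 18103 probe sets below that median, and at 0% and 1.45% in pair 2, beside 0.862% and 0.994%. The dimmer members were thus near the shares of all dim probe sets.

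Considered by direction in both pairs, 43 member probe sets (30.9%) were higher on the KO-labelled array in pair 1 and lower in pair 2, where 23.3% of all tested were. The opposite course, lower in pair 1 and higher in pair 2, was taken by 39 (28.1%), beside 30.5% of all. Higher in both pairs were 23 (16.5%, beside 24.6%), and lower in both 34 (24.5%, beside 21.6%). The courses varied with brightness over all tested. Of the 8919 probe sets at least as bright as the members' median, 2600 were higher and then lower and 2044 the reverse. Of the 18103 below it, 3690 and 6192 were. The 70 brighter members had 27 and 15, and the 69 dimmer members 16 and 24. The unmatched shares have to be read with this beside them. With a margin of 1.25-fold in each pair, a limit chosen after the values were seen, 8 members (5.76%) were higher and then lower, beside 2.18% of all, and these were the probe sets of Syn2, Syp, Synpr, Slc17a7 and Syt13. Lower and then higher were 10 (7.19%), beside 1.9% of all, from Syt4, Snap25, Syn3, Sv2b, Rims2 and Stxbp6. A single member, of Stxbp5, was over 1.25-fold higher in both pairs (0.719%, beside 0.381%), and 0 were over 1.25-fold lower in both (0.618% of all). The tested probe set of Vamp8, named after its values were seen, was at -0.321 and -0.375. It fell just short of this limit in pair 1. Several of these probe sets share a gene, so the counts are not counts of independent members.

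**Figure D1:**
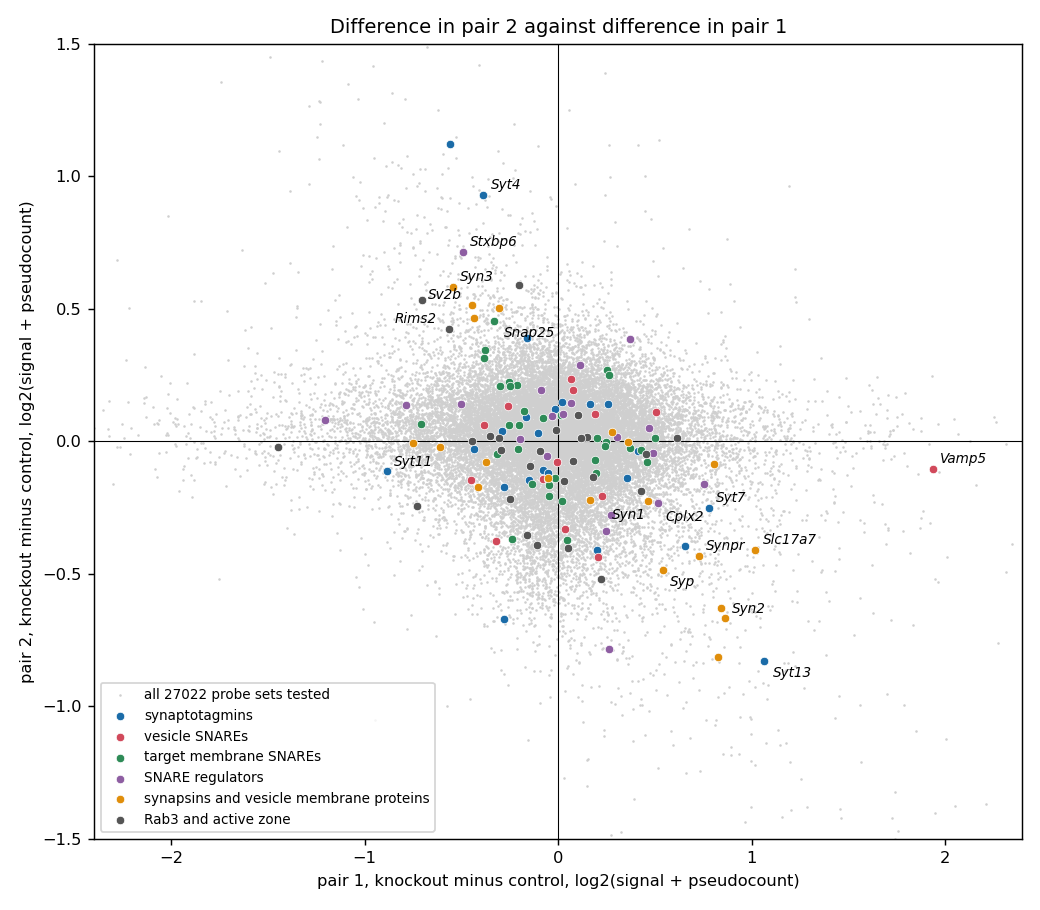
Each point is a probe set, with its difference in pair 1 across and in pair 2 upward, both as KO-labelled minus control-labelled array in log2(signal + pseudocount); grey points are all 27022 probe sets tested, of which 55 lie outside the axes, and coloured points the 139 members by role, with the brightest probe set of the larger differences named. Syn2, Syt13, Slc17a7, Synpr and Syp lie at lower right, and Syt4, Stxbp6, Syn3 and Sv2b at upper left.

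Synapsins, the phosphoproteins that tether vesicles to one another and to actin, differed by paralogue, with Syn1 and Syn2 on one side and Syn3 on the other. Syn2 had a signal of 2210 on the KO-labelled and 1202 on the control-labelled array in pair 1, and of 451 and 736 in pair 2 (1428460_at). The KO-labelled array was thus higher in pair 1 and lower in pair 2, with log2 differences of 0.86 and -0.67. All 4 tested Syn2 probe sets followed this course, between 0.80 and 0.86 in pair 1 and between -0.81 and -0.09 in pair 2. Syn1, on the X chromosome, read 3361 on the KO-labelled and 2424 on the control-labelled array in pair 1, against 279 and 332 in pair 2, which gave 0.47 and -0.22. Syn3 took the reverse course, with 2171 on the KO-labelled and 3185 on the control-labelled array in pair 1, and 545 and 353 in pair 2 (1435311_s_at). Its differences were -0.55 and 0.58, and those of its second probe set -0.31 and 0.50, while the dimmest, 1421248_at, was at -0.75 and -0.01. In the limma fit as designed Syn1 had a log2 difference of 0.12 ± 1.65 (SE, n = 2 per group) and Syn3 of 0.02 ± 1.69, with SEs of 0.21 and 0.27 in the blocked fit. Syn2 was named after its values were seen, so that the family stands complete.

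The same reversal separated the vesicle glycoproteins SV2A and SV2B. Sv2b had 1503 on the KO-labelled and 2062 on the control-labelled array in pair 1, and 458 and 310.5 in pair 2 (1434800_at). Its 2 tested probe sets lay at -0.45 and -0.43 in pair 1 and at 0.52 and 0.47 in pair 2. Sv2a, a binding site of the antiepileptic drug levetiracetam, read 1665 and 1292 in pair 1 and 266 and 267 in pair 2, a difference of 0.36 and of -0.00362, the pair 2 value turning to 0.01 when arrays were scaled to 1 trimmed mean. Both genes were picked with their values in view. The paralogues thus lay on opposite sides in pair 1, and Sv2a showed next to no difference in pair 2.

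The integral vesicle proteins of the synaptophysin family and the glutamate loader followed Syn2. Synaptophysin (Syp) had 2209 on the KO-labelled and 1507 on the control-labelled array in pair 1, and 197 and 289 in pair 2, or 0.54 and -0.48. Synaptoporin (Synpr), its relative in mossy fibre terminals and named after its values were seen, had 1303 and 775 in pair 1 and 480.3 and 659 in pair 2, or 0.73 and -0.43. Slc17a7, the vesicular glutamate transporter VGLUT1, was dim, at 396 and 179 in pair 1 and at 51.9 and 79.6 in pair 2, or 1.02 and -0.41. On the KO-labelled array of replicate 2 its signal was below the array median of 75.8. Synaptogyrins differed less. Syngr1 was at 0.16 and -0.22 with its second tested probe set at -0.38 and -0.08, Syngr3 at -0.05 and -0.14 with its second probe set at -0.41 and -0.17, and Snap91, the clathrin assembly protein AP180, at 0.28 and 0.03 with a dim second probe set at -0.61 and -0.02. In all, the 20 tested probe sets of synapsins and vesicle membrane proteins had a median of 0.22 in pair 1 and -0.11 in pair 2. Of these, 10 were higher and then lower, where 23.3% of all tested probe sets were. The 10 included the 4 of Syn2 itself and that of Sv2a, at -0.00362 in pair 2.

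The sequences just before the transcription start are given for 5 of these genes, because their levels ran together (Syn1, Syn2, Syp) or apart (Sv2a, Sv2b). They are 250 bases of the strand transcribed from RefSeq's GRCm38.p6 table, 5′ to 3′ and ending at the start site, from the most upstream start where there were several. Capitals mark matches on either strand to TTCAGCACC, the left part of the RE1 element bound by the neuronal repressor REST, to TGACGTCA, the cAMP response element, and to GGGCGG, the GC box bound by Sp factors. The windows were chrX:20920919-20921168 on the minus strand for Syn1, chr6:115134652-115134901 on the plus strand for Syn2, chrX:7638330-7638579 on the plus strand for Syp, chr7:75309263-75309512 on the minus strand for Sv2b and chr3:96180977-96181226 on the plus strand for Sv2a.
Syn1: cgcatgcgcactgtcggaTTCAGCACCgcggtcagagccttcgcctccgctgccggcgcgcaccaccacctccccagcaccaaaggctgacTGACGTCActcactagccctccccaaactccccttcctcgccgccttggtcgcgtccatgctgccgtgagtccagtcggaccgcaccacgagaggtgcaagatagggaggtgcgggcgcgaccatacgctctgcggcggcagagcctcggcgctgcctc
Syn2: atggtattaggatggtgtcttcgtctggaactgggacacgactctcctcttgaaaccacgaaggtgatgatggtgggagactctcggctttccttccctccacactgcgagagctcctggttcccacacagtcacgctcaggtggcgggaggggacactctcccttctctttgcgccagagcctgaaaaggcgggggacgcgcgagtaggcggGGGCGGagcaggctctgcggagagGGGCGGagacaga
Syp: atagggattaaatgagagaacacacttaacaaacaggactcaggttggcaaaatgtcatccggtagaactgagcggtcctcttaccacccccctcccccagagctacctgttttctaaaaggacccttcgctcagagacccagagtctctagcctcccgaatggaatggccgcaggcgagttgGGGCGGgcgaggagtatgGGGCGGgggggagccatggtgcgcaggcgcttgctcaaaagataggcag
Sv2b: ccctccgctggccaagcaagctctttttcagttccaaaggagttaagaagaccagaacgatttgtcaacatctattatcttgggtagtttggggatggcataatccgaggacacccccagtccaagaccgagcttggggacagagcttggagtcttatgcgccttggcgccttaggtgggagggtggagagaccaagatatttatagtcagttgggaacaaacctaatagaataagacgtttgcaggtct
Sv2a: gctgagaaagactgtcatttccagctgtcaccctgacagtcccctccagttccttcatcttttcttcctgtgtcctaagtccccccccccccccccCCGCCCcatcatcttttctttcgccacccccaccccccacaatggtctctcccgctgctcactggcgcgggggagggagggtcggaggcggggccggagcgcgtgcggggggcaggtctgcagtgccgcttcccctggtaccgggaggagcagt

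The Syn1 window held 1 match to the RE1 letters and 1 to the cAMP response element, and no GC box in these letters. Syn2 and Syp each held 2 GC boxes, Sv2a 1 and Sv2b 0, and the GC content ran from 48.8% in Sv2b to 68% in Syn1. Windows were found for 59 of the 73 member genes, 80 in all. The RE1 letters were in 1.25% of the members' windows, that of Syn1, and in 0.301% of all 32851 windows. The cAMP response element was in 2.5% and 1.55%, and the GC box in 61.3% and 32.7%. These are letter matches and not sites shown to be bound.

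Among synaptotagmins, Syt13 and Syt4 differed in opposite senses. Syt4, a synaptotagmin that binds calcium poorly and is induced by neuronal activity, had 4062 on the KO-labelled and 5322 on the control-labelled array in pair 1, and 2689.6 and 1396 in pair 2 (1415844_at). The KO-labelled array was thus the lower one of pair 1 and the higher one of pair 2, by -0.39 and 0.93, and by -0.56 and 1.12 at the second probe set. Syt13, which lacks the calcium-binding residues, had 419 and 184 in pair 1 and 105 and 213 in pair 2 (1434470_at), or 1.06 and -0.83. Its other probe set stood at 0.66 and -0.39. Syt1, the fast calcium sensor of transmitter release, had the highest mean log2 signal of the members, with 10457 on the KO-labelled and 9093 on the control-labelled array in pair 1, and 1695 and 2264 in pair 2. That probe set was at 0.20 and -0.41, while the 3 others of Syt1 lay between -0.29 and -0.02 in pair 1 and between -0.11 and 0.12 in pair 2.

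Syt7 and Syt11 showed how far probe sets of a gene could part. Syt7, a slow calcium sensor, had 2718 and 1571 in pair 1 and 389.7 and 469.5 in pair 2 at its brightest probe set (1460081_at), or 0.78 and -0.25. At 1441927_at it had 830.4 on the KO-labelled and 1015 on the control-labelled array in pair 1, and 364 and 598 in pair 2, or -0.28 and -0.67, which was the smallest p among members in limma's blocked fit (log2 -0.47 ± 0.18 SE, unadjusted p = 0.0343, adjusted p = 0.9999). For Syt11, 5036 stood against 9323 in pair 1 and 1095 against 1188 in pair 2 at 1456464_x_at, or -0.88 and -0.11, and the other 4 probe sets lay between -0.16 and 0.17 in pair 1. The 24 tested synaptotagmin probe sets had medians of -0.06 and -0.07.

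Among target membrane SNAREs, Snap25 took the course of Syt4. Snap25, the neuronal SNARE that is cut by botulinum toxins A and E, had 7531 on the KO-labelled and 9471 on the control-labelled array in pair 1, and 2243 and 1627 in pair 2, or -0.33 and 0.46. Its dim second probe set was at -0.38 and 0.34. Stx1a, its partner syntaxin, had 4762 and 4611 in pair 1 and 808 and 1056 in pair 2, or 0.05 and -0.37, and its second tested probe set, 1448366_at, was at -0.02 and -0.14. Stx1a was thus lower in pair 2, where Snap25 was higher, and had no single side in pair 1. Snap23, the SNAP25 relative of non-neuronal exocytosis and added with its values in view, lay between -0.30 and -0.18 in pair 1 and between 0.11 and 0.21 in pair 2 over 2 probe sets. Of the endosomal syntaxins, Stx12 was at -0.08 and 0.09 at its brightest probe set and at 0.25 and 0.27 at the other. Stx7 was at 0.24 and -0.02, the pair 2 value of Stx7 turning to 0.12 with quantile normalization. All 33 tested probe sets of the group had medians of -0.05 and 0.01, the pair 2 median being -0.00541 with centring on the 75th percentile.

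Vesicle SNAREs had small differences apart from a dim Vamp5 probe set. Vamp2, synaptobrevin-2, the main vesicle SNARE of the forebrain, had 2903 on the KO-labelled and 2512 on the control-labelled array in pair 1, and 1181 and 1610.3 in pair 2, or 0.21 and -0.44, with its second probe set at 0.23 and -0.21. It lay on the side of Syn2 in both pairs. Vamp3, cellubrevin, was at 0.04 and -0.33 at its brightest probe set, but over 5 probe sets lay between -0.45 and 0.07 in pair 1 and between -0.33 and 0.24 in pair 2. Vamp4, of the trans-Golgi network, was at -0.01 and -0.08, and its other 2 probe sets lay at -0.05 and 0.08 in pair 1 and at -0.14 and 0.19 in pair 2. Vamp7, an X-linked SNARE of neurite outgrowth and lysosomes, was higher on the KO-labelled array in both pairs at both probe sets, with differences of 0.19 and 0.50 in pair 1, against 0.10 and 0.11 in pair 2. Vamp5, known from muscle, had 168 on the KO-labelled and 19.8 on the control-labelled array in pair 1, and 66.2 and 73.5 in pair 2, or 1.94 and -0.10. The control-labelled value of pair 1 lay below the 20th percentile of that array, 27.7.

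Among SNARE regulators Cplx1 and Cplx2 kept to the side of Syn2 and Stxbp6 to that of Syn3. The other complexins, both below the filter, went the other way, Cplx3 at -0.30 and 0.10 and Cplx4 at -0.47 and 0.09. Cplx1 had 4137 on the KO-labelled and 3485 on the control-labelled array in pair 1, and 1384 and 1759 in pair 2, or 0.25 and -0.34. Cplx2 had 4534 and 3157 in pair 1 and 735 and 868 in pair 2, or 0.52 and -0.23. All 3 probe sets of Cplx1 and all 3 of Cplx2 followed Syn2. The farthest in pair 2 was 1421477_at of Cplx2, at 835 on the KO-labelled and 1461 on the control-labelled array. Stxbp6, amisyn, a SNARE-binding inhibitor of fusion, had 1226 and 1738 in pair 1 and 746 and 441 in pair 2, or -0.49 and 0.72. Stxbp5l, a tomosyn, was at 0.07 and 0.14, and over 3 probe sets between -0.20 and 0.30 in pair 1. Its relative Stxbp5 had 508 and 385 in pair 1 and 218 and 159 in pair 2 at the probe set that was higher in both pairs, 1430301_at, or 0.37 and 0.39, while 1435398_at was at -0.09 and 0.19. Stxbp5 was added with its values in view.

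Among Rab3 proteins, the small GTPases on vesicles, and active zone scaffolds, Rims2 and Bsn had opposite courses, while all tested probe sets of Rab3a and Rab3c were lower on the KO-labelled array in pair 2. Rims2, a Rab3 effector that organises calcium channels and named after its values were seen, had 994 on the KO-labelled and 1484 on the control-labelled array in pair 1, and 225 and 159 in pair 2, or -0.56 and 0.43. Over 3 tested probe sets it lay between -0.71 and -0.20 in pair 1 and between 0.43 and 0.59 in pair 2. Rims1 did not share this, at -0.15 and -0.09 at one probe set and 0.62 and 0.01 at the other. Bassoon (Bsn), a giant scaffold of the active zone, had 878 and 644 in pair 1 and 459.8 and 528 in pair 2, or 0.43 and -0.19. Rab3a, the main neuronal Rab3 gene, was at -0.25 and -0.22 at its brightest probe set and at 0.22 and -0.52 at the other. For Rab3c all 4 tested probe sets were lower on the KO-labelled array in pair 2, between -0.40 and -0.24, while pair 1 ranged from -0.73 to 0.05. The 26 tested probe sets of the group had medians of -0.10 and -0.03.

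**Figure D2:**
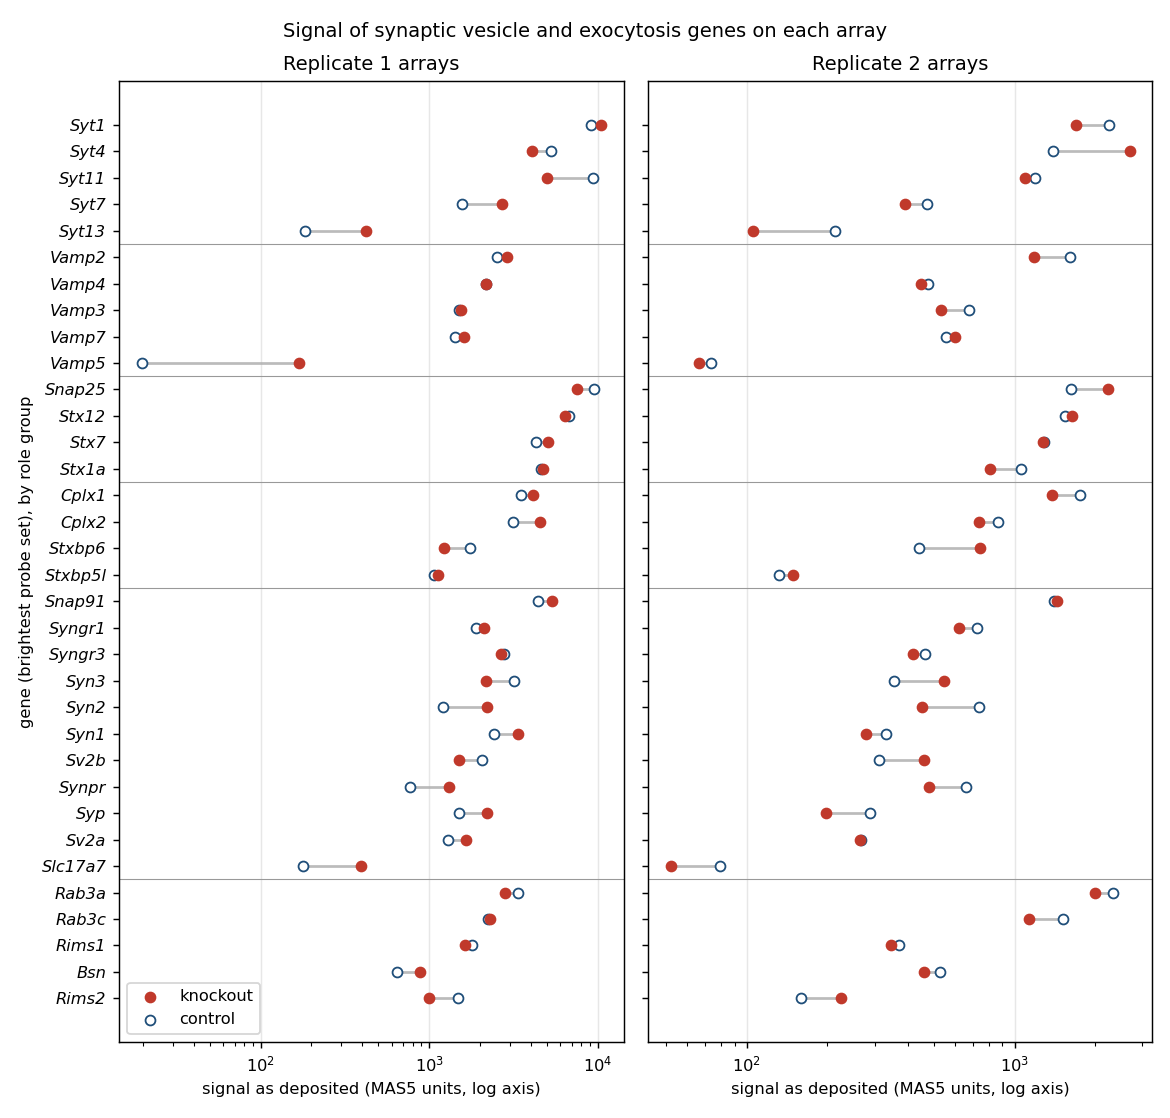
Signal as deposited (log axis) of the brightest probe set of 34 named genes, with the replicate 1 arrays left and the replicate 2 arrays right; filled points are KO-labelled and open points control-labelled arrays, and lines separate the role groups. Syn2, Synpr, Syp, Syt13 and Slc17a7 have the filled point to the right in replicate 1 and to the left in replicate 2, and Syt4, Snap25, Stxbp6, Syn3, Sv2b and Rims2 the reverse.

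**Figure D3:**
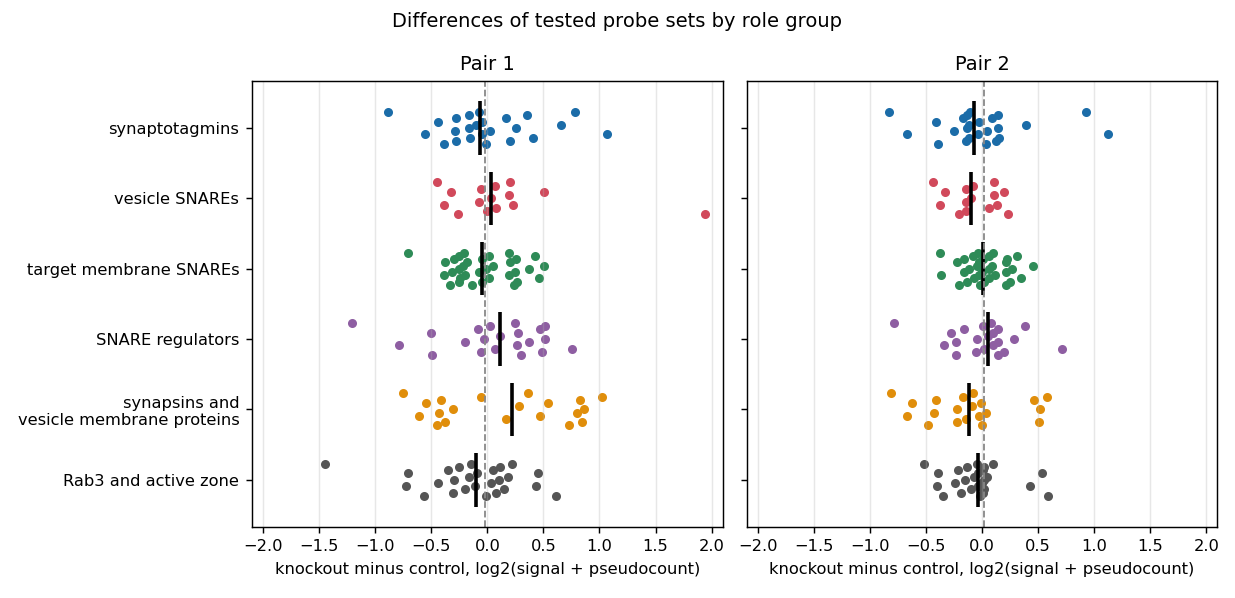
Differences of the 139 tested member probe sets by role group, as KO-labelled minus control-labelled array in log2(signal + pseudocount), in pair 1 (left) and pair 2 (right); points are probe sets, black bars the group medians and dashed lines the median of all 27022 probe sets. Medians range from -0.10 to 0.22 in pair 1 and from -0.11 to 0.05 in pair 2, within groups whose points spread to both sides.

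Further probe sets of a gene gave a check on single values. Of the 64 genes tested, 41 had 2 or more tested probe sets. All probe sets of a gene had 1 direction in pair 1 for 18 genes (43.9%, beside 43.7% of all genes with 2 or more). They had 1 direction in pair 2 for 27 (65.9%, beside 59.1%), and in each of the pairs for 14. Over all 5962 genes with 2 or more tested probe sets, 28.7% had 1 direction in each pair, beside 34.1% of the member genes. For 12 of the 14 the direction was opposite in the 2 pairs (85.7%), as it was for 62.0% of such genes overall. Higher and then lower were Syn2, Cplx1, Cplx2, Vamp2, Syt13 and Bsn, and lower and then higher Syt4, Snap25, Snap23, Sv2b, Rims2 and Stxbp6. Only Vamp7 (higher) and Syngr3 (lower) had 1 direction throughout. All 14 genes kept their directions under quantile normalization, scaling to 1 trimmed mean, centring on the 75th percentile, and both other treatments of low signal. Probe sets of a gene share the RNA of the array and are not replicates of a group.

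**Figure D4:**
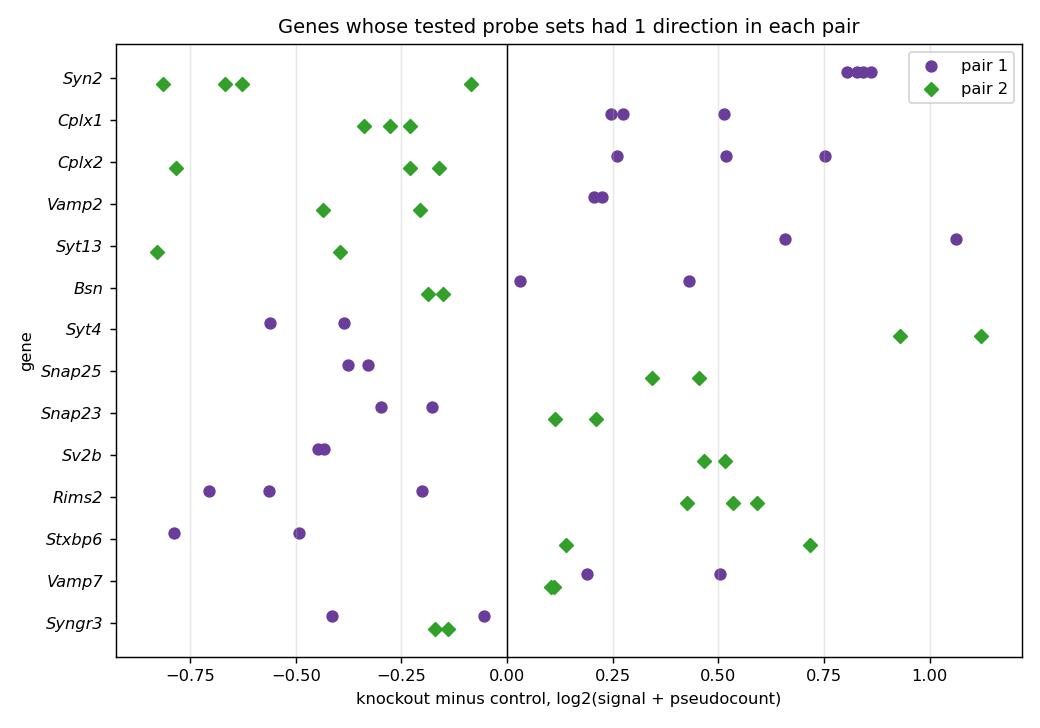
Each point is a tested probe set of 1 of the 14 genes whose probe sets all had 1 direction in each pair, with circles for pair 1 and diamonds for pair 2, as KO-labelled minus control-labelled array in log2(signal + pseudocount). For 12 genes circles and diamonds lie on opposite sides of 0, for Vamp7 both lie on the right and for Syngr3 both on the left.

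Machinery around the vesicle that the member rule did not take in was read from fixed lists, with 1 probe set a gene, and limma called 0 genes of any of them with or without the block. Over all 12581 genes tested this way the medians were -0.01 in pair 1 and -0.00063 in pair 2, with 3289 genes (26.1%) higher and then lower and 3447 (27.4%) the reverse. Of all genes, 48.6% were higher on the KO-labelled array in pair 1 and 49.8% in pair 2. Of 14 genes of the vesicular proton pump, which energises transmitter loading, 9 were higher and then lower and 1 the reverse, with medians of 0.17 and -0.25. Its brightest were Atp6v1e1, at 0.09 and -0.29, Atp6ap2, at 0.20 and -0.23, and Atp6v0d1, at 0.19 and -0.32. Of 12 genes of SNARE recycling and other SNAREs, 8 were higher and then lower and 1 the reverse (medians 0.19 and -0.16). Snap47, a SNAP25 relative, was at 0.31 and -0.46 and the chaperone gene Dnajc5 at 0.21 and -0.09. Nsf, the ATPase that takes spent SNARE bundles apart, named after its values were seen, had 6600.4 on the KO-labelled and 4200.1 on the control-labelled array in pair 1, and 505 and 922 in pair 2, or 0.65 and -0.83.

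Vesicle endocytosis resembled these lists in its medians and the remaining ones less so. Of 18 endocytosis genes 9 were higher and then lower and 3 the reverse (medians 0.10 and -0.12). The clathrin light chain gene Clta was at 0.27 and -0.53, the adaptor gene Ap2m1 at -0.02 and -0.14, and Cltc at 0.16 and 0.12. Of 22 active zone and priming genes 17 were higher on the KO-labelled array in pair 1, and 13 in pair 2, near the share of all genes (medians 0.19 and 0.09). The brightest of them were Lin7c, at 0.25 and 0.12, Cadps, a priming factor, at 0.47 and 0.07, and Erc2, at 0.19 and -0.28. The 10 genes of other vesicle glycoproteins and transporters had medians of 0.03 and 0.02, with Slc17a6, the vesicular glutamate transporter VGLUT2, at -0.08 and 0.14. The 8 exocyst genes had medians of 0.04 and 0.11.

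Cell type markers differed beside the vesicle genes in both pairs. Of 6 tested markers of the subiculum and retrosplenial cortex, the cortex next to the hippocampus, 6 were lower and then higher. This course, the KO-labelled array lower in pair 1 and higher in pair 2, was taken by 27.4% of all genes. In pair 2 Ntng2 and Tpbg were at only 0.08 and 0.17. Of the members, Syt4, Snap25, Syn3, Sv2b, Rims2 and Stxbp6 took this course, and Syn2, Syp, Synpr, Slc17a7 and Syt13 the reverse. The list was chosen with earlier results of these data known. The summed signal of the 7 listed genes was 12484 and 35222 in pair 1 and 8892 and 2278 in pair 2, KO-labelled first, and Scn4b was the 1 of them below the filter. Of 10 markers of postmitotic neurons, 5 were higher and then lower and 4 the reverse, and their summed signal was 104132 and 96194 in pair 1 and 28316 and 29306 in pair 2. Neuronal markers thus lay on both sides, as the vesicle genes did, with, chosen after their values were seen, the nuclear protein gene Rbfox3 at 0.35 and -0.82 and the neurofilament gene Nefm at -1.09 and 0.38. Among 7 markers of dividing cells, the KO-labelled array was lower for 6 in pair 1 and higher for 6 in pair 2. Lower and then higher were 5 of the 7, beside 27.4% of all genes. Their summed signal was 3856 and 4719 in pair 1, and 1619 and 1354 in pair 2. Of 8 tested liver genes 7 were lower in pair 1 (median -2.08 over the 8), and in pair 2 the median was 0.04. The exception was Ttr, the brightest of the list, at 0.24 in pair 1 and 1.39 in pair 2. Its signal was 74106 and 62551 in pair 1 and 9232 and 3505 in pair 2, KO-labelled first. The remaining lists had medians of -0.04 and -0.32 for 8 genes of astrocytes and radial glia, 0.02 and -0.04 for 6 of the oligodendrocyte lineage, 0.01 and -0.20 for 7 of microglia, and -0.31 and 0.01 for 6 of endothelium. Whether any of these markers account for the vesicle gene values was not tested.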

How the data were processed

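Values were microarray signal intensities on a linear scale, deposited by the authors as 1 table of 4 arrays. Per the submitters' processing notes MAS5 produced them. Its version, a scaling target, a background setting and detection calls were not given in the sources used here, and the authors' scaling was kept. Gene symbols came from GEO's platform annotation, and only probe sets with 1 symbol (34945, against 932 with several and 9160 with none) were named. All 73 member genes matched RefSeq by Entrez ID, with 0 symbols updated. No probe positions were given.

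Signals were transformed as log2(signal + 32.56), the pseudocount being the 20th percentile of all values. Probe sets above the 40th percentile of mean log2 signal were tested (27022). limma 3.58.1 in R 4.3.3 was fitted to the 4 arrays with a trended prior, as knockout minus control, without a covariate, with Benjamini-Hochberg adjustment over all tested and a threshold of 0.05. A block for the replicate number, which coincides with the 2 scales, was fitted beside it. On simulated data with changes alike in both pairs, only the blocked fit was required to recover them. The fit without the block was run on the same simulated data, but its recovery is not given here. What that fit can detect is thus left unstated. Across probe sets, arrays of 1 number deviated together from the group means (Pearson r = 0.837), and the labels do not say what a number marks. The number of arrays limits the precision.

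A gene was shown by its probe set of highest mean log2 signal. Genes were named by rule: the 4 brightest of each of 6 role groups, those over 2-fold apart in a pair, and Syn1, Syp, Snap25, Vamp2, Stx1a, Syt1 and Slc17a7, and of each further list up to 3 of the brightest. Others are marked as named after their values were seen. The members and lists were chosen with earlier results of these data known. Alternatives were other scalings, pseudocounts, filters, variance models, 1 probe set a gene, the block and leaving out each array.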

Additional observations from a re-analysis of the deposited data

How the results depend on the processing

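Of 15 alternatives tried, those that kept all 4 arrays, the replicate block included, called 0 probe sets overall and 0 members with limma. The pseudocount, filter and variance alternatives kept the gap in scale between the replicates, so their 0 calls say little about a difference. Leaving out an array left a single array in a group, without the block, so those fits cannot decide whether a difference exists. With the replicate block, 330 probe sets were under an unadjusted p of 0.05, against 5 without it. The labels do not tie replicate numbers to litters, so the block stands here for whatever differed between the numbers. That difference went beyond scale. Spearman correlations over all probe sets were 0.926 and 0.986 within a number, and 0.818 to 0.832 across numbers. Without the block the prior degrees of freedom were infinite, so each SE was the value of the trend at that brightness. Each SE then held the difference between the replicate numbers, scale included. Leaving out an array removes a pair, so the pair values have no such alternative.

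The median difference of the members stayed near 0 throughout. In pair 1 it was -0.0399 with a floor of 1, -0.0521 with no filter, 0.0185 with a filter at the 60th percentile and 0.0293 with 1 probe set a gene, against -0.0166. In pair 2 it was -0.0655 with quantile normalization, -0.016 with scaling to 1 trimmed mean, -0.0446 with centring on the 75th percentile, -0.00918 with no filter and -0.0518 with 1 probe set a gene, against -0.0275. The count of members higher in pair 1 and lower in pair 2 was 26 with 1 probe set a gene, which left 64 members tested. That was 40.6%, beside 26.1% of all, against 43 of 139 (30.9%, beside 23.3% of all). Among the 34 named genes, only Stx7 and Sv2a in pair 2 changed sign under a scaling or pseudocount alternative. Of the counts past 1.5-fold, the 9 lower in pair 1 were also 4 with a filter at the 60th percentile (4.31% of all), and the 4 higher in pair 2 were 7 with a floor of 1 (1.72% of all). With 1 probe set a gene, of 64 members 6 (9.4%) were higher and 2 (3.1%) lower in pair 1, beside 5.51% and 8.29% of all. In pair 2, 2 (3.1%) were higher and 2 (3.1%) lower, beside 1.01% and 2.17% of all.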
